A study of Mus musculus with 6 samples.

Results

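The data below cover 29 pairs of a microRNA (miRNA) locus listed as intronic and its protein-coding host gene, 58 genes in all. Each miRNA was read in small RNA-seq, where the table holds 2262 distinct features, and each host in RNA-seq, where it holds 53726. The pairs were a list of known intronic miRNAs, kept if the miRNA had a mean of 15 or more reads over the 3 small RNA-seq libraries, and all 29 listed pairs passed. The lowest means were 32.3 reads for Mir326 and 39.0 for Mir33, so no listed pair lay close to that limit.

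RNA came from Achilles tendon of mice at 4 weeks of age, 1 tendon sample per genotype, and each sample gave 1 RNA-seq and 1 small RNA-seq library. Control carried Dicer f/f and no Cre, ScxHt carried ScxCre/+ Knock In with Dicer +/+, and Dicer cKO carried ScxCre/+ Knock In with Dicer f/f. Cre therefore came from 1 knock-in allele of Scx, a tendon transcription factor, in ScxHt and in Dicer cKO. Cells of Dicer cKO in which Cre was never active keep Dicer. The paper proposes that recombination was inefficient and mosaic, so cells that express Scx may keep it too. Control and Dicer cKO share the floxed Dicer alleles, which ScxHt lacks. With 1 library per genotype and assay there is no replicate check, no p-value is given, and the intervals below cover counting error only. In whole tendon RNA, fewer cells of a type and less RNA per cell cannot be told apart.

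An intronic miRNA is transcribed as part of its host's primary transcript or from a promoter of its own inside the host. DROSHA and DGCR8 cut the hairpin out in the nucleus, often from an intron that is then still spliced, and DICER cuts the hairpin to the mature miRNA in the cytoplasm. A host and its miRNA can therefore move together, or apart where the miRNA has its own promoter or where processing or stability differ.

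Some of the miRNAs come from more than 1 of the listed loci, which decides what a pair can show, so their sequences are given first. RefSeq (GRCm38.p6) held an entry for 28 of the 29 loci, and Mir151 was the one not matched. In the mature sequences the capitals mark the seed, bases 2 to 8. The same miR-26a-5p comes from introns of Ctdspl and Ctdsp2, the same miR-103-3p from introns of Pank3 and Pank2, the same miR-218-5p from introns of Slit2 and Slit3 and the same miR-128-3p from introns of R3hdm1 and Arpp21. miR-26b-5p shares its seed with miR-26a-5p, and miR-107-3p shares its seed with miR-103-3p.
miR-26a-5p (Mir26a-1, chr9:119031811-119031832, + strand): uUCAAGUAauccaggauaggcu
miR-26b-5p (Mir26b, chr1:74394324-74394344, + strand): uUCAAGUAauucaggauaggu
miR-103-3p (Mir103-1, chr11:35782447-35782469, + strand): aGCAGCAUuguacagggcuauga
miR-107-3p (Mir107, chr19:34820700-34820722, - strand): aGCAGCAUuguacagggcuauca
miR-218-5p (Mir218-1, chr5:48223966-48223986, + strand): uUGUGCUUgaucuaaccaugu
miR-128-3p (Mir128-1, chr1:128202404-128202424, + strand): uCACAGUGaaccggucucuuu

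The hairpins of Mir128-1 and Mir128-2 are shown because their ratios differed most from 1 among the miRNAs in Dicer cKO. Here the capitals mark the arm that both loci share, and the rest of each hairpin differs.
Mir128-1 (chr1:128202361-128202430, + strand, 70 bases): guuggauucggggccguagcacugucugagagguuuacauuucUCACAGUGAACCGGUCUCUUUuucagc
Mir128-2 (chr9:112118636-112118711, - strand, 76 bases): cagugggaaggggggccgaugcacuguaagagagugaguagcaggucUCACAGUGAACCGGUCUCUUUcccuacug

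The other miRNAs that stood apart from their hosts come from single loci.
miR-140-3p (chr8:107551288-107551308, + strand): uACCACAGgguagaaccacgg
miR-455-3p (chr4:63256904-63256924, + strand): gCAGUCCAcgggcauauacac
miR-139-5p (chr7:101475382-101475403, + strand): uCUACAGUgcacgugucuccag
miR-33-5p (chr15:82198127-82198147, + strand): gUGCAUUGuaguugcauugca

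In GENCODE vM21, which is on GRCm38 as the files are, 28 of the 29 hairpins lie inside the listed host on its own strand. Their position within the host varied from 523 bases behind its start, for Mir152 in intron 1 of Copz2, to 611559 bases, for Mir204 in intron 6 of Trpm3. Mir191 is the exception. Its hairpin (chr9:108568319-108568392) ends 1494 bases before the start of Dalrd3 in this annotation, on the same strand, while the Dalrd3 gene of RefSeq begins before the hairpin and holds it. Only the Mir26a-2 hairpin touches an exon of a protein-coding transcript of its host, one of Ctdsp2. Mir140 lies in intron 16 of 23 of the coding Wwp2 transcript and overlaps an exon of 1 other Wwp2 transcript. Mir139 also lies within an overlapping gene, Gm45837, so reads there may have been split between genes by the counting.

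Library totals were 14936241 to 16218733 counts in RNA-seq and 8435829 to 10986541 in small RNA-seq. Dicer1, the gene deleted in Dicer cKO, had 1919 reads in Control, 2025 in ScxHt and 1621 in Dicer cKO, a Dicer cKO versus Control ratio of 0.877 (95% counting interval 0.821 to 0.938), and its count covers the whole gene, so transcripts that lack only the floxed part stay in it. All 8 tendon markers were detected. By their intervals, 8 of 8 were lower in Dicer cKO than in Control, beside 28.5% of all RNA-seq genes. Of the 8, 5 were below a ratio of 0.60, beside 561 of 13404 genes. Scx is in both counts, although its own locus carries the Cre knock-in, which the paper describes as able to inactivate it. Scx is thus no independent marker against Control, where it stood at 0.365 in Dicer cKO and at 0.623 in ScxHt. Relative to ScxHt, which has the same knock-in, 8 of 8 markers were also lower in Dicer cKO, beside 30.6% of all genes. All 8 skeletal muscle markers were higher in Dicer cKO than in Control by their intervals, beside 21.6% of all genes. Their summed level in CPM, the count scaled to an equal library total, was 54219.7 in Control, 30173 in ScxHt and 93771 in Dicer cKO. Most of that sum came from Ttn, with 688745, 329060 and 1062032 reads in these libraries. The summed level of 6 Schwann cell markers was 40.8, 41.8 and 438.7 CPM. The libraries thus differed in the RNA of muscle and nerve sheath markers, and its part in the values below was not tested.

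The miRNA loci spanned a wide range of abundance. In the Control library the level ran from 3.73 CPM for Mir326 to 14914 for Mir26a-2, with a median of 97.3. Their hosts ran from 0.448 RPKM for Slit2 to 55.0 for Copz2, with a median of 7.43 RPKM. The 29 loci held 4.91% of all small RNA counts in Control, 5.37% in ScxHt and 4.67% in Dicer cKO, in which reads of a shared mature sequence can be counted at each locus.

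A highly expressed host did not always go with a highly expressed miRNA. Mir191 had 3307 CPM in Control beside 3.53 RPKM of Dalrd3, whereas Mir33 had 4.64 CPM beside 11.9 RPKM of Srebf2. Across the 29 pairs, the log levels of miRNA and host had a Pearson correlation of 0.347 in Control, 0.337 in ScxHt and 0.373 in Dicer cKO. With 1 locus for each shared mature sequence, which leaves 25 pairs, these were 0.324, 0.324 and 0.366. The points share libraries and, within miRNA families, reads, so these values are descriptions.

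**Figure D1:**
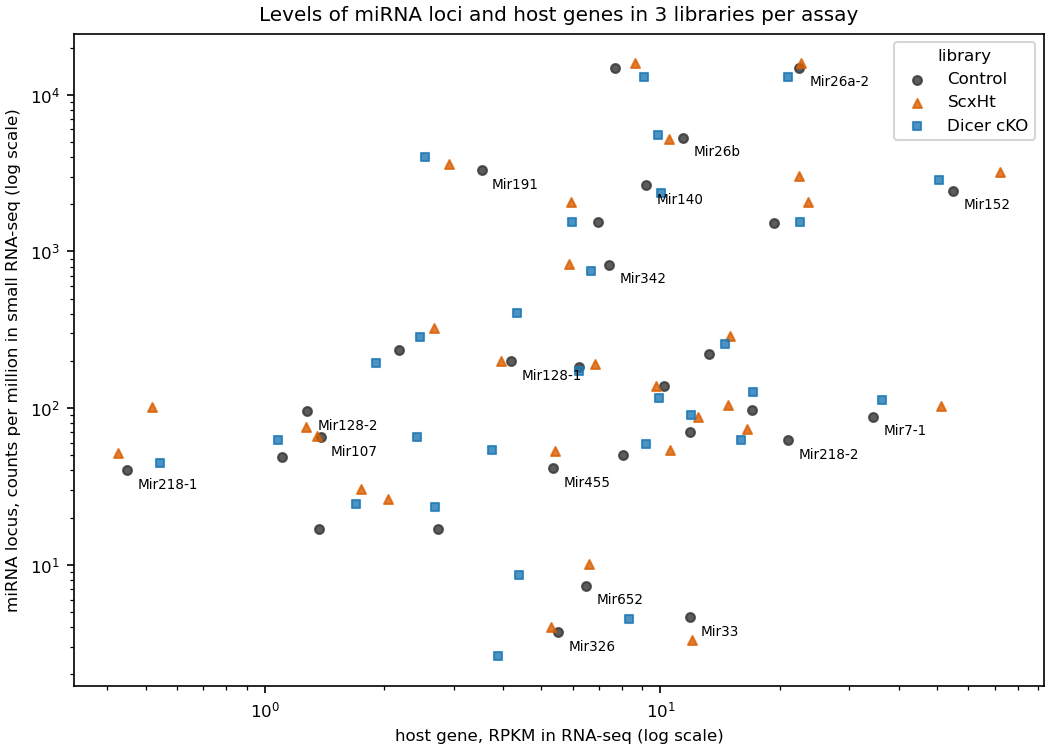
Level of each miRNA locus (CPM in small RNA-seq, log scale) against the level of its host gene (RPKM in RNA-seq, log scale) for 29 pairs in the Control, ScxHt and Dicer cKO libraries, 1 point per pair and library, with some loci named at their Control point. Mir191 sits high above a host of 3.53 RPKM in Control and Mir33 low beside a host of 11.9 RPKM.

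For each comparison, the ratio of normalised counts was taken for the miRNA and for its host, each scaled in its own assay, and the miRNA ratio was divided by the host ratio. A quotient of 1 means that both ratios were equal under these scalings. A ratio or quotient below 0.60 was counted as lower and one above the inverse of 0.60, rounded to 2 decimals, as higher. The study set these limits on DESeq2 fold changes estimated with shrinkage. The ratios here were not shrunk, and the quotient is not a measure of the study. The scaling centres each assay, so a loss common to all miRNAs leaves no trace in these ratios.

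Few of the miRNA and host genes differed between the libraries by that measure. For Dicer cKO versus Control, 2 of the 29 miRNA loci (6.90%) were past a threshold, and both gave miR-128-3p, where 12.6% of 334 small RNA-seq features were. Of the hosts, 1 (3.45%) was past it, the pantothenate kinase gene Pank1, where 8.06% of 13404 RNA-seq genes were. For ScxHt versus Control no miRNA locus was past a threshold, beside 9.94% of 332 features, although Mir301 was with total counts. The hosts Wwp2 and Arpp21 were past it in that comparison, 2 of 29 (6.90%), beside 7.74% of 13462 genes. For Dicer cKO versus ScxHt, the same 2 miRNA loci (6.90%) were past it, beside 13.4% of 322 features, and the hosts Arpp21, Pank1 and Wwp2, 3 of 29 (10.3%), beside 13.4% of 13455 genes. In every comparison the members were past a threshold no more often than the features of their table.

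The quotient was past a threshold in 3 of 29 pairs (10.3%) for Dicer cKO versus Control, in 3 (10.3%) for ScxHt versus Control and in 4 (13.8%) for Dicer cKO versus ScxHt. Among all 97 miRNA and host pairs that the annotation gives with enough reads, 27 of them members, the shares were 15.5%, 19.6% and 16.5%. The members' shares lay below these. In log2, the median quotient of the members was 0.11 for Dicer cKO versus Control (middle 50% of pairs from -0.19 to 0.30), 0.07 for ScxHt versus Control (-0.04 to 0.32) and -0.14 for Dicer cKO versus ScxHt (-0.38 to 0.27), and that of the 97 pairs was 0.01, -0.03 and 0.01. The interval of the quotient lay above 1 in 10, 7 and 7 of the 29 pairs in these comparisons and below 1 in 7, 6 and 12. It held 1 in the other 12, 16 and 10. Among the 97 pairs it left out 1, on either side, in 55.7%, 53.6% and 54.6%.

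The miRNA and host ratios lay on the same side of 1 in 15 of 29 pairs for Dicer cKO versus Control, in 18 for ScxHt versus Control and in 13 for Dicer cKO versus ScxHt. Where the intervals of both ratios left 1 out, they pointed the same way in 6 of 12, 8 of 10 and 5 of 7 pairs. Loci that share a mature sequence entered these counts as separate pairs. The counts have no background from other annotated pairs or random pairings, so whether they exceed it was not tested. Pearson correlations of the log2 ratios over the 29 pairs were 0.275, 0.181 and 0.444, and Spearman correlations 0.195, 0.298 and 0.145. Without the Mir128 loci the Pearson values were 0.116, 0.136 and 0.0529 over 27 pairs, so the highest of them rested on these loci. With 1 locus for each shared mature sequence, over 25 pairs, the Pearson values were 0.0954, 0.183 and 0.154. The Spearman values were then 0.0469, 0.393 and 0.0985.

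**Figure D2:**
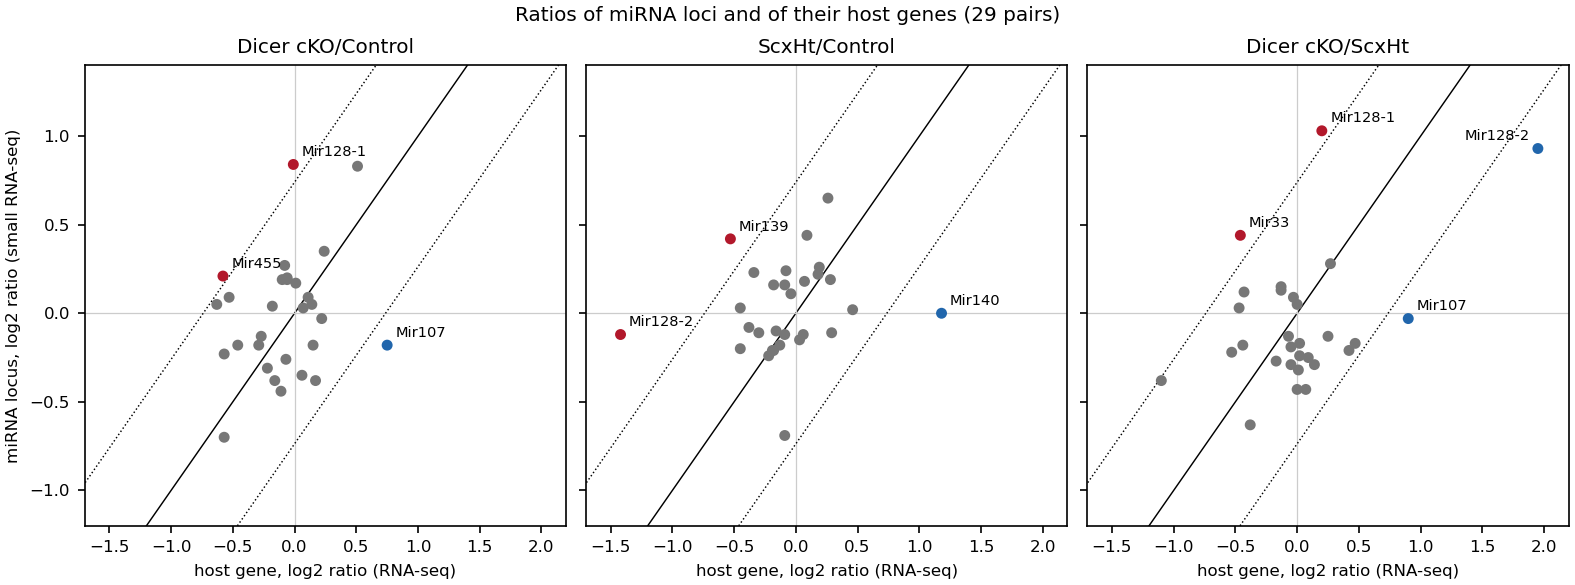
Log2 ratio of each miRNA locus (small RNA-seq) against that of its host gene (RNA-seq) for Dicer cKO versus Control, ScxHt versus Control and Dicer cKO versus ScxHt, 1 point per pair. The solid line marks equal ratios, dotted lines the thresholds of the quotient, and the named red and blue points are the 3, 3 and 4 pairs above or below them.

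The miR-128 pairs held the largest difference among the miRNAs. Mir128-1 had 2190 reads in Control, 1676 in ScxHt and 3423 in Dicer cKO, and Mir128-2 had 1056, 863 and 1643. Both loci were high in Dicer cKO, with Dicer cKO versus Control ratios of 1.79 (1.70 to 1.89) and 1.78 (1.65 to 1.93). R3hdm1, the host of Mir128-1 and a gene for a protein with an R3H nucleic acid-binding domain, had 2143, 1966 and 2046 reads and stayed near Control, with a Dicer cKO versus Control ratio of 0.991 (0.933 to 1.05). The quotient of Mir128-1 and R3hdm1 was therefore 1.81 (1.666 to 1.959) for Dicer cKO versus Control and 1.78 (1.64 to 1.94) for Dicer cKO versus ScxHt, beside 0.981 (0.898 to 1.07) for ScxHt versus Control.

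Arpp21, the host of Mir128-2, encodes a cyclic AMP-regulated phosphoprotein best known from brain. It had 363 reads in Control, 142 in ScxHt and 497 in Dicer cKO. ScxHt was far below the other two libraries, with an ScxHt versus Control ratio of 0.375 (0.306 to 0.456) and a Dicer cKO versus ScxHt ratio of 3.86 (3.19 to 4.68). Mir128-2 differed less, with ratios of 0.921 (0.841 to 1.01) and 1.90 (1.75 to 2.07). The quotient was hence 2.46 (1.98 to 3.04) for ScxHt versus Control and 0.494 (0.403 to 0.605) for Dicer cKO versus ScxHt, on opposite sides of 1. Relative to Control, Dicer cKO had both at a higher level, with a host ratio of 1.42 (1.24 to 1.63) and a quotient of 1.25 (1.07 to 1.47).

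The reads of miR-128-3p do not say which locus they came from. The Mir128-1 count was 2.07 times the Mir128-2 count in Control, 1.94 times in ScxHt and 2.08 times in Dicer cKO. Over the same libraries, R3hdm1 had 5.90, 13.8 and 4.12 times the reads of Arpp21. The ratio between the loci moved less than that between the hosts. Against the summed reads of both hosts, a calculation added after the values were seen, the quotient of Mir128-1 was 1.70 (1.57 to 1.84) for Dicer cKO versus Control, 1.07 (0.982 to 1.17) for ScxHt versus Control and 1.54 (1.42 to 1.668) for Dicer cKO versus ScxHt. Of 4 neuron markers, Syt1 had 0 reads in all 3 libraries, Snap25 had 0, 0 and 10, Rbfox3 had 0, 2 and 0, and Stmn2 had 47, 57 and 54. Arpp21 had the same order of libraries, ScxHt lowest and Dicer cKO highest, as the summed levels of skeletal muscle, smooth muscle and endothelial markers. However, Myh4 and Actn3 of the skeletal muscle list were higher in ScxHt than in Control. Acta2 and Cnn1 of the smooth muscle list were not lower there. In the endothelial list, the Dicer cKO versus Control ratios of Emcn and Tie1 were 0.930 (0.799 to 1.08) and 0.743 (0.660 to 0.836). The part of RNA of any of these cell types in Arpp21 was not tested.

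**Figure D3:**
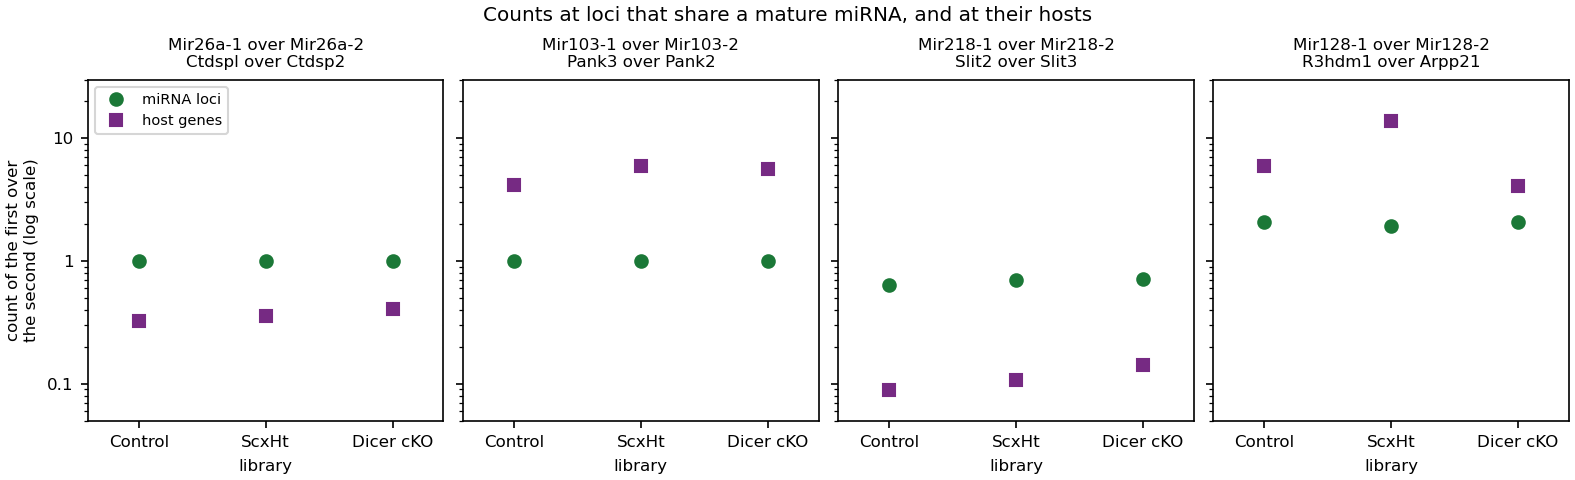
Count at the first locus over the count at the second (circles) and count of the first host over the second (squares), on a log scale, in the Control, ScxHt and Dicer cKO libraries for 4 mature miRNAs with a pair of loci. The circles lie near 1 for Mir26a and Mir103 and between 1.94 and 2.08 for Mir128, whereas R3hdm1 over Arpp21 moves between 4.12 and 13.8.

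The pantothenate kinases, which catalyse the first step of coenzyme A synthesis, host miR-103 and miR-107. Pank1, the host of Mir107, had 83 reads in Control, 79 in ScxHt and 134 in Dicer cKO, and Mir107 had 715, 561 and 551. The host was high in Dicer cKO alone, and the miRNA was not. The host ratio was 1.68 (1.27 to 2.23) for Dicer cKO versus Control and 1.87 (1.41 to 2.50) for Dicer cKO versus ScxHt, and the quotient 0.527 (0.392 to 0.708) and 0.525 (0.389 to 0.711). For ScxHt versus Control the quotient was 0.970 (0.699 to 1.35). Pank1 was one of the least expressed hosts, at 1.38 RPKM in Control and 2.43 in Dicer cKO, which makes its intervals wide.

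Pank3 and Pank2, the hosts of Mir103-1 and Mir103-2, did not show that pattern. Pank3 had 2322, 2748 and 2486 reads in Control, ScxHt and Dicer cKO and Pank2 had 556, 460 and 439, so that Pank3 was the kinase gene with the highest level, at 19.4 RPKM in Control beside 6.97 for Pank2. Mir103-1 had 16742, 17355 and 12907 reads and Mir103-2 had 16828, 17466 and 12977. The loci differed by less than 1% in every library, and which locus the reads came from cannot be told apart. Against the summed hosts, the quotient of Mir103-1 was 0.837 (0.791 to 0.886) for Dicer cKO versus Control. It was 1.09 (1.04 to 1.16) for ScxHt versus Control and 0.740 (0.700 to 0.782) for Dicer cKO versus ScxHt.

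A list of 5 other genes held Pank4, Ctdspl2 of the CTDSP phosphatases described below, and Coasy, Ppcs and Ppcdc of coenzyme A synthesis. Of these, 4 were above the minimum count and none was past a threshold in any comparison. Of all genes, 8.06% were past it for Dicer cKO versus Control, 7.74% for ScxHt versus Control and 13.4% for Dicer cKO versus ScxHt. Pank4, a family member without known pantothenate kinase activity, was the highest for Dicer cKO versus Control at 1.49 (1.24 to 1.79), with 200, 227 and 287 reads. Coasy, which encodes the enzyme of the last steps of coenzyme A synthesis, had a ratio of 0.953 (0.778 to 1.17). Ppcs was below the minimum.

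The CTDSP phosphatases, which act on the C-terminal domain of RNA polymerase II, host the miR-26 family, the most abundant miRNAs of the list. Mir26a-1 had 163794 reads in Control, 133616 in ScxHt and 109506 in Dicer cKO, and Mir26a-2 had almost the same, 163856, 133703 and 109574. Their hosts had 649, 706 and 704 reads (Ctdspl) and 2012, 1973 and 1733 reads (Ctdsp2). The miR-26a ratio was lowest in Dicer cKO, 0.766 (0.760 to 0.772) of Control, whereas the summed hosts were at 0.951 (0.900 to 1.01). Against the summed hosts, the quotient of Mir26a-1 was 0.806 (0.762 to 0.852) for Dicer cKO versus Control. It was 0.953 (0.903 to 1.01) for ScxHt versus Control and 0.818 (0.773 to 0.864) for Dicer cKO versus ScxHt.

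Mir26b, in intron 4 of Ctdsp1, had 58584, 43997 and 46762 reads, and Ctdsp1 had 617, 553 and 492. The quotient held 1 in its interval in all 3 comparisons, at 1.10 (0.981 to 1.24), 0.986 (0.878 to 1.11) and 1.08 (0.959 to 1.22). With counts scaled by library totals, the log2 ratio of Mir26b for Dicer cKO versus Control turned from -0.13 to 0.06, and those of Mir103-1, Mir103-2 and Mir107 from -0.18 to 0.01.

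Wwp2 and Col27a1 host the miRNAs of this list that are best known from cartilage. Wwp2 encodes an E3 ubiquitin ligase, and it had 1323 reads in Control, 3138 in ScxHt and 1332 in Dicer cKO, so that ScxHt stood apart. Mir140 had 29002, 25733 and 19817 reads and was not high in ScxHt. The ScxHt versus Control ratio was 2.27 (2.13 to 2.42) for Wwp2 and 0.9996 (0.983 to 1.02) for Mir140, which gave a quotient of 0.440 (0.412 to 0.470), the lowest of the 29 in that comparison. For Dicer cKO versus Control, Wwp2 was level at 1.05 (0.968 to 1.13) and Mir140 was at 0.783 (0.769 to 0.797), a quotient of 0.749 (0.693 to 0.810). For Dicer cKO versus ScxHt both were lower, Wwp2 at 0.468 (0.438 to 0.499) and Mir140 at 0.770 (0.756 to 0.785), and the quotient of 1.65 (1.54 to 1.76) lay just inside the threshold, and past it with total counts. RNA-seq also counted reads at the Mir140 hairpin itself, 10 in Control, 21 in ScxHt and 8 in Dicer cKO, an ScxHt versus Control ratio of 2.01 with an interval from 0.907 to 4.78.

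Col27a1, a gene for a fibrillar collagen chain of cartilage, had 1133, 1112 and 731 reads. Mir455 had 455, 450 and 458 reads, nearly the same number in each library. The host was low in Dicer cKO, with a Dicer cKO versus Control ratio of 0.670 (0.610 to 0.736), and the miRNA was not, at 1.15 (1.01 to 1.32). The quotient was 1.72 (1.47 to 2.02) for Dicer cKO versus Control, 1.19 (1.02 to 1.38) for ScxHt versus Control and 1.405 (1.197 to 1.65) for Dicer cKO versus ScxHt.

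Of 8 cartilage markers, 5 were above the minimum count, and the summed level was 1821 CPM in Control, 2378 in ScxHt and 1368 in Dicer cKO. Matn1 was at 0 reads in all libraries, and Col9a1 had 5, 6 and 1. Sox9, the transcription factor of cartilage cells that tendon also expresses, had 527, 400 and 130 reads, a Dicer cKO versus Control ratio of 0.256 (0.210 to 0.311). Acan, the large cartilage proteoglycan, had 5201, 7003 and 2921 reads. Hapln1, a link protein gene, had 1046, 1991 and 995 reads, with ratios of 1.82 (1.69 to 1.97) for ScxHt versus Control and 0.988 (0.905 to 1.08) for Dicer cKO versus Control. The collagen gene Col11a1 had 21735, 27157 and 15567 reads, and Col2a1, which encodes the main collagen of cartilage, had 985, 837 and 806. Acan, Hapln1 and Col11a1 were thus highest in ScxHt, as Wwp2 was, whereas Sox9 and Col2a1 were below Control there. The part of cartilage RNA in Wwp2 and Col27a1 was not tested.

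Srebf2, the transcription factor that switches on genes of cholesterol synthesis and uptake, hosts Mir33, which is known to act on the cholesterol exporter Abca1. Srebf2 had 1386 reads in Control, 1364 in ScxHt and 897 in Dicer cKO and was low in Dicer cKO, with ratios of 0.672 (0.617 to 0.731) to Control and 0.725 (0.665 to 0.789) to ScxHt. Mir33 had only 51, 28 and 38 reads, and its interval held 1 for Dicer cKO versus Control, at 0.854 (0.546 to 1.33), and for Dicer cKO versus ScxHt, at 1.36 (0.811 to 2.30). The quotient was 1.87 (1.14 to 3.07) for Dicer cKO versus ScxHt, past the threshold but with an interval that reached well below it, and 1.27 (0.828 to 1.95) for Dicer cKO versus Control.

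All 9 other genes of the sterol pathway list were above the minimum count, and their median log2 ratio was -0.32 for Dicer cKO versus Control, beside -0.03 over all genes. By their intervals, 6 of the 9 were lower and 1 was higher, beside 28.5% and 21.6% of all genes, and 2 were below 0.60, beside the 8.06% of all genes past a threshold in either direction. Abcg1, a sterol exporter, was one of those below 0.60, with 121, 118 and 68 reads and a ratio of 0.584 (0.427 to 0.792). Sqle, an enzyme of cholesterol synthesis, was at 0.627 (0.498 to 0.787). Insig1, a brake on this pathway, was the one that was higher, at 1.17 (1.06 to 1.29), and Abca1 was at 0.974 (0.924 to 1.03). For ScxHt versus Control the list's median was -0.02, with no gene past a threshold, beside 7.74% of all genes.

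Slit2 and Slit3 encode secreted ligands of ROBO receptors that guide migrating cells, axons and vessels. Slit3 had 2070 reads in Control, 1583 in ScxHt and 1454 in Dicer cKO, and Slit2 had 185, 171 and 207, which per length is 21.0 against 0.448 RPKM in Control. Slit3 was thus the main ligand gene of the pair in tendon, and it was below Control in both other libraries, at 0.732 (0.686 to 0.782) in ScxHt and 0.729 (0.682 to 0.780) in Dicer cKO. Mir218-2 had 686, 622 and 527 reads and Mir218-1 had 440, 435 and 376, with ScxHt versus Control ratios of 1.02 (0.915 to 1.14) and 1.11 (0.973 to 1.27). Against the summed hosts, the quotient of Mir218-1 was 1.28 (1.10 to 1.49) for Dicer cKO versus Control. It was 1.495 (1.29 to 1.73) for ScxHt versus Control and 0.828 (0.710 to 0.966) for Dicer cKO versus ScxHt. That of Mir218-2, whose ratios differed somewhat, was not calculated against the summed hosts.

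Of 7 other genes of the SLIT and ROBO pathway, 6 were above the minimum count. None was past a threshold for Dicer cKO versus Control, beside 8.06% of all genes. Robo1, a receptor of both ligands, had 624, 1111 and 543 reads and an ScxHt versus Control ratio of 1.71 (1.54 to 1.88). Robo4, a receptor of endothelium, had 532, 317 and 451 reads and an ScxHt versus Control ratio of 0.571 (0.495 to 0.657).

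Among the hosts of channels and signalling proteins, Pde2a stood apart from its miRNA. It encodes a phosphodiesterase that degrades cyclic nucleotides, and it had 273 reads in Control, 198 in ScxHt and 248 in Dicer cKO, while Mir139 had 187, 222 and 197. ScxHt held the lowest host count and the highest miRNA count of the 3 libraries. Against Control these were at 0.695 (0.576 to 0.837) and 1.34 (1.10 to 1.63), so that the quotient was 1.93 (1.47 to 2.51), and against ScxHt the quotient of Dicer cKO was 0.643 (0.492 to 0.840). All 7 endothelial markers were above the minimum count and 7 of 7 were lower in ScxHt than in Control by their intervals, beside 23.8% of all RNA-seq genes, with a summed level of 615.3 CPM in Control, 446.4 in ScxHt and 707.9 in Dicer cKO, and the part of endothelial RNA in Pde2a was not tested.

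The other pairs of this group had quotients between 0.842 and 1.08 in all 3 comparisons. Mir204 had 2597, 2754 and 2410 reads beside 286, 340 and 297 for Trpm3, a calcium-permeable channel, and the quotients were 0.986, 1.05 and 0.909. Mir744 had 2432, 2448 and 2170 reads beside 1005, 1101 and 1016 for Map2k4, a kinase upstream of JNK. Mir326 and its host Arrb1, an arrestin of G protein-coupled receptors, were both low in Dicer cKO, with 41, 34 and 22 reads for the miRNA and 999, 931 and 649 for the host. Their Dicer cKO versus Control ratios were 0.615 (0.349 to 1.06) and 0.675 (0.610 to 0.745), a quotient of 0.912 (0.538 to 1.54), and the miRNA difference was not detectable at this depth.

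The hosts of adhesion and cell surface proteins and their miRNAs stayed within the thresholds. Gpc1, a heparan sulphate proteoglycan, had 1428, 1207 and 1319 reads beside 1069, 881 and 1072 for Mir149. Tln2, a talin that links integrins to actin, had 3546, 3604 and 3271 reads beside 769, 738 and 765 for Mir190a. Ptk2, the focal adhesion kinase, had 1963, 1810 and 1747 reads beside 1530, 1173 and 985 for Mir151, with a Dicer cKO versus Control quotient of 0.798 (0.720 to 0.885). Evl, an actin regulator, had 355, 272 and 294 reads beside 9036, 6974 and 6369 for Mir342. The log2 ratio of Mir342 for ScxHt versus Control turned from -0.20 to 0.01 with total counts, and that of Mir149 from -0.11 to 0.10.

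Among trafficking hosts, Copz2, a subunit of the COPI vesicle coat, had the highest level of all hosts, at 55.0 RPKM in Control, 72.0 in ScxHt and 50.7 in Dicer cKO. Mir152 lies close behind its start and had 26843, 27225 and 24087 reads, with quotients of 1.17 (1.09 to 1.25), 0.939 (0.883 to 0.999) and 1.203 (1.13 to 1.28) for Dicer cKO versus Control, ScxHt versus Control and Dicer cKO versus ScxHt. Tmem164, a membrane protein gene, was low in Dicer cKO, with 722, 714 and 449 reads, and Mir652 had 81, 85 and 73. Their Dicer cKO versus Control quotient was 1.60 (1.14 to 2.24), inside the threshold here and past it with total counts. Mir361 and Chm, a Rab escort protein gene, had quotients between 0.876 and 0.960, and Mir185 and Tango2 between 0.930 and 1.28.

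The last group has hosts that act on RNA and in mitosis. Hnrnpk, an abundant RNA-binding protein gene, had 3628 reads in Control, 5220 in ScxHt and 3508 in Dicer cKO and was high in ScxHt, at a ratio of 1.38 (1.32 to 1.44) to Control. Mir7-1, in the last intron of Hnrnpk, had 968, 871 and 947 reads and a ratio of 1.01 (0.924 to 1.11), which gave a quotient of 0.736 (0.665 to 0.814). Its mature miR-7a-5p is also made from Mir7-2, which had 937, 826 and 898 reads. Zranb2, a splicing regulator, was also high in ScxHt, with 881, 1126 and 932 reads beside 551, 453 and 497 for Mir186, and its ScxHt versus Control quotient was 0.757 (0.650 to 0.881).

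Mir191 had 36335, 30418 and 33803 reads, beside 141, 113 and 94 for Dalrd3, a gene for a tRNA modification factor. The Dicer cKO versus Control quotient was 1.54 (1.19 to 2.0). Mir425, which lies next to Mir191, had 898, 743 and 606 reads and a Dicer cKO versus Control ratio of 0.773 (0.697 to 0.858), below the 1.07 (1.05 to 1.08) of Mir191. Mir301 had 185, 258 and 206 reads, highest in ScxHt at 1.57 (1.30 to 1.91), the largest miRNA ratio of that comparison and past the threshold with total counts, beside 73, 91 and 83 reads for Ska2, a kinetochore protein gene, at 1.19 (0.868 to 1.65).

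**Figure D4:**
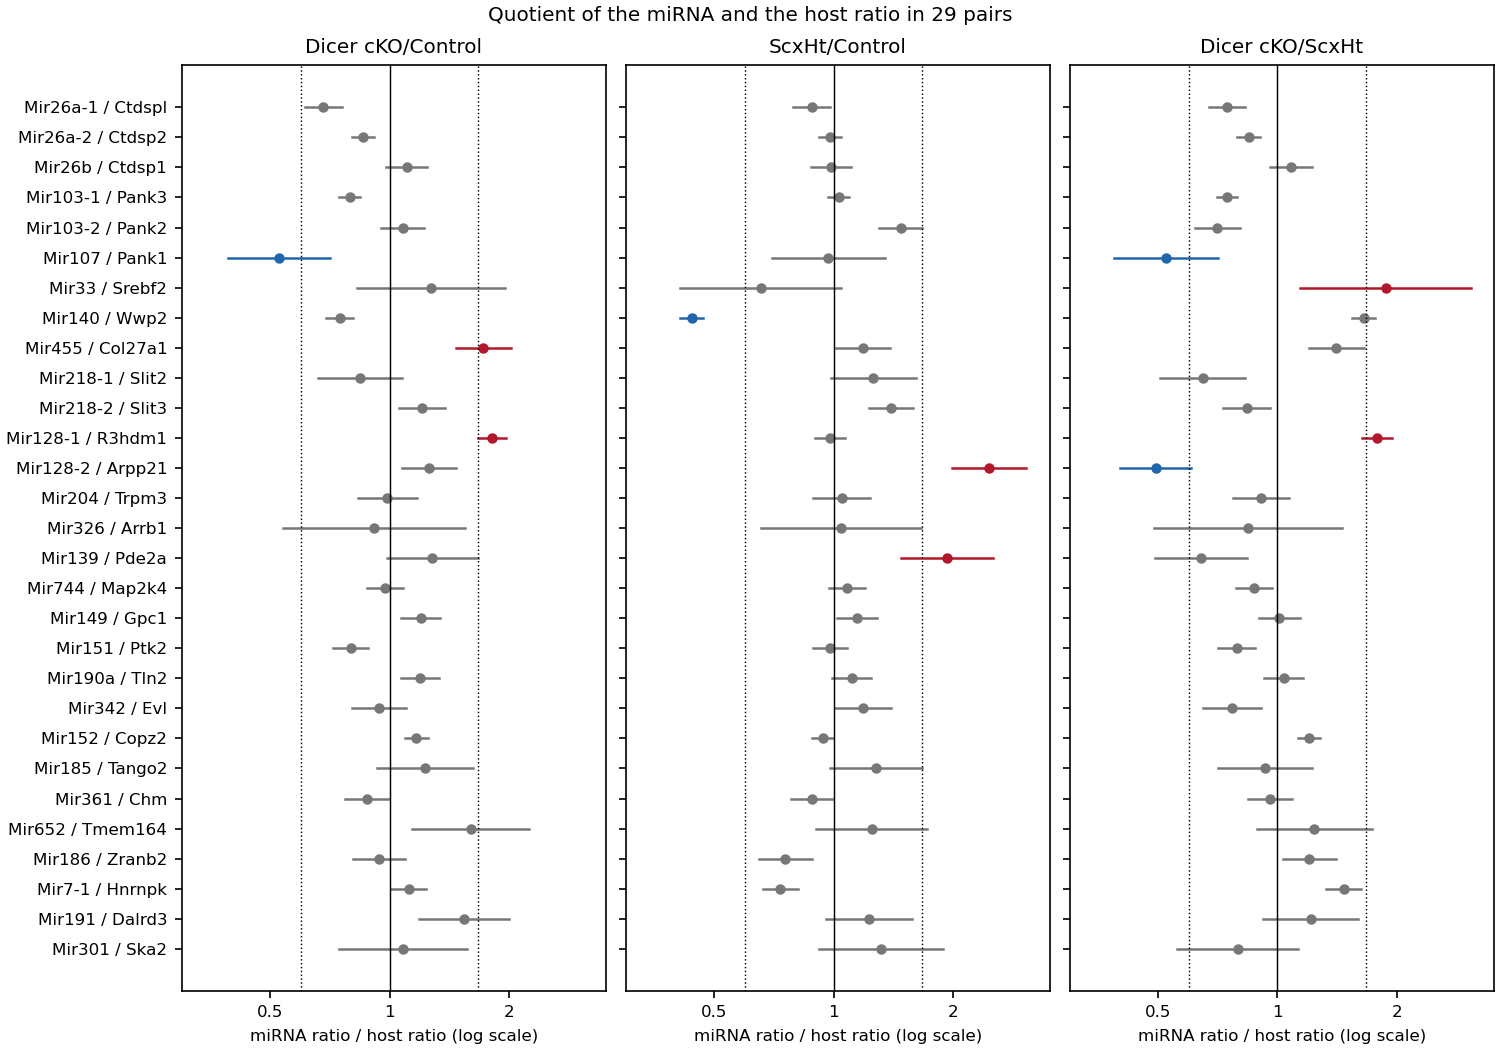
Quotient of the miRNA ratio and the host ratio (log scale) in the 29 pairs for Dicer cKO versus Control, ScxHt versus Control and Dicer cKO versus ScxHt, with 95% counting intervals as lines and dotted lines at 0.60 and its inverse. Mir140/Wwp2 at 0.440 and Mir128-2/Arpp21 at 2.46 for ScxHt versus Control lie wholly outside them.

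Only those 2 of the 10 quotients past a threshold had their whole interval outside it. Against the summed reads of both hosts, the quotient for ScxHt versus Control was 1.07 with the Mir128-1 count. With the Mir128-2 count it was not calculated. Mir107/Pank1 was below 0.60 and Mir128-1/R3hdm1 above the upper threshold in Dicer cKO against Control as well as against ScxHt, comparisons that share the Dicer cKO libraries. Mir455/Col27a1 was past the threshold against Control only, and Mir33/Srebf2 against ScxHt only, and the difference between these comparisons was not tested.

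All 10 genes of the list that process or bind miRNAs were above the minimum count. None was past a threshold for Dicer cKO versus Control or Dicer cKO versus ScxHt, beside 8.06% and 13.4% of all genes. By their intervals, 2 were higher and 5 lower for Dicer cKO versus Control, beside 21.6% and 28.5% of all genes. For Dicer cKO versus ScxHt 6 were lower, beside 30.6%, and 0 higher, beside 24.9%. Drosha, the nuclear nuclease that frees the hairpins, was at 1.02 (0.925 to 1.12) for Dicer cKO versus Control, its partner Dgcr8 at 1.14 (0.997 to 1.30) and Xpo5, which exports the hairpins, at 0.790 (0.699 to 0.893). Ago1, which binds mature miRNAs, was the lowest at 0.651 (0.582 to 0.727). Prkra, a partner of DICER, had 90, 161 and 120 reads and was past the threshold for ScxHt versus Control, at 1.71 (1.32 to 2.24).

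RNA-seq held few reads at the hairpins themselves. The 29 hairpins had 98 reads together in Control, 120 in ScxHt and 79 in Dicer cKO, 6 had none in any library and 9 had 10 or more in total. Mir652 had the most, with 32, 36 and 21, followed by Mir186 with 11, 18 and 14 and by Mir140. At this depth the precursors of most members could not be compared between the libraries.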

How the data were processed

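Achilles tendon RNA of 3 genotypes was measured by RNA-seq and small RNA-seq, 1 library each, 6 in all. Per the study's methods, the authors trimmed adaptors, mapped reads to GRCm38-mm10 with TopHat and Bowtie2 and counted them with HTSeq. Versions, annotation release and strand setting are not given in the sources used here. The deposited counts are raw reads per gene. The unit of the other values deposited by the authors is not named in the sources used here, and they are taken as RPKM, since in 29 of 29 hosts they equalled the count over the library total times 1 factor per gene within 0.56%. RPKM were used for levels of hosts only. Lines that repeat an earlier line were dropped, 463 in RNA-seq and 3 in small RNA-seq.

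Counts were divided by DESeq2 1.42.0 median-of-ratios size factors (R 4.3.3) of the 2 libraries compared, per assay. Ratios have 95% Clopper-Pearson intervals, and quotients a log-normal interval from their 4 counts, and the calculation was tested on simulated data (scipy 1.17.1, pandas 2.3.3 and numpy 2.4.6 under Python 3.11.15, figures with matplotlib 3.10.9). Features needed a mean normalised count above 15 in small RNA-seq and 50 in RNA-seq to enter the shares of all features. Loci were placed with GENCODE vM21, and sequences came from RefSeq GRCm38.p6. The 97 annotated pairs are miRNAs inside a gene on its strand. All 29 listed pairs were named, with other miRNAs of the same host or seed and members of the pathway lists. Single marker genes were picked from their lists after their values were seen. The members and gene lists were chosen with earlier results of these data known. Lists for macrophages, lymphocytes, smooth muscle and adipocytes were also summed. Some single genes of the lists are not reported here.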

Additional observations from a re-analysis of the deposited data

How the results depend on the processing

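The pairs with a quotient past a threshold numbered 3 for Dicer cKO versus Control, 3 for ScxHt versus Control and 4 for Dicer cKO versus ScxHt. Under edgeR 4.0.16 TMM scaling, size factors over all 3 libraries, total counts and total counts without features above 1%, all of these pairs kept their calls. Total counts gave 5 for Dicer cKO versus Control, with Mir652 and Mir191 added, and 5 for Dicer cKO versus ScxHt, with Mir140 added. The miRNA ratio of Mir301 for ScxHt versus Control was then past the threshold, and Mir140, Mir301 and Mir652 were also added without features above 1%. Total counts moved the miRNA ratios by 0.18 (log2) for Dicer cKO versus Control and 0.21 for ScxHt versus Control and the quotients by 0.12 and 0.10, and turned the direction of 6 and 11 of the 29 miRNA ratios, none of them past a threshold. Thresholds of 2 and 0.5 left 0 for Dicer cKO versus Control and 1 for Dicer cKO versus ScxHt, and a whole interval past the threshold left 0 for each of them. Without loci that share a mature sequence there were 2 in each comparison. With the hosts of 2 loci summed and the count of the first locus, a choice made after seeing the data, there were 3, 2 and 2. The Mir128 quotient, from the Mir128-1 count, was then inside the threshold for ScxHt versus Control. The fewer calls follow from the stricter limits and from the pairs left out or merged. The median log2 quotient kept its sign under every setting, from 0.11 to 0.23, 0.07 to 0.17 and -0.17 to -0.02 in the 3 comparisons. Under scaling and a pseudocount of 1, 1173 of 1305 single ratios stayed within their counting interval, and none past a threshold turned its direction.

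No paired analysis was possible because each genotype has 1 library per assay and the result comes from no test. No library was left out, since each is the only one of its genotype. Ratios of loci with under 100 reads, Mir33, Mir326 and Mir652, are limited by depth.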

Other observations

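Other marker lists also differed between the libraries. All 4 macrophage markers passed the minimum count, and their summed level was 152.0 CPM in Control, 280.7 in ScxHt and 122.6 in Dicer cKO. Above the upper threshold were 3 of 4 for ScxHt versus Control, beside 408 of 13462 RNA-seq genes. For Dicer cKO versus Control none was, beside 519 of 13404 genes. Of 4 smooth muscle markers 3 were above the minimum, with a summed level of 648.3, 480.0 and 961.0 CPM. The 4 adipocyte markers summed to 375.6, 515.6 and 426.3 CPM, and for Dicer cKO versus Control their ratios were 1.24 for Adipoq, 1.53 for Cidec, 0.993 for Plin1 and 0.425 for Lep. No lymphocyte marker was above the minimum. Of 6 Schwann cell markers, 4 were above it. For Dicer cKO versus Control, 4 of 4 were past the upper threshold, beside 519 of 13404 RNA-seq genes.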
